A study of Mus musculus with 6 samples.

Results

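The genes described here encode the folding machinery of the endoplasmic reticulum (ER) and the unfolded protein response that adjusts it, measured in mouse livers with and without p14. They were a list of 35 genes, chosen by function as chaperones, factors of ER degradation and stress sensors, out of 18193 genes with a probe set of their own. All 35 had a probe set whose annotation named no other gene, with Ero1l listed as Ero1a. Each gene was read from its brightest probe set over the 6 arrays, and 34 of the 35 passed a filter that asked for log2 4 or more on 3 or more arrays. The exception was Derl3. On this filter 10009 of the 18193 genes were kept.

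The livers came from 6 male C57BL/6 mice at 6 weeks of age, with 1 array per mouse. In 3 of them (KO 1 to KO 3) p14 was deleted conditionally in the liver, and 3 were controls with the genotype p14 WT (WT 1 to WT 3). The labels name neither the Cre driver nor the floxed allele, and do not say whether the controls carried either of them. p14 is the product of Lamtor2, a late endosomal adaptor of the Ragulator complex, which anchors mTORC1 signalling on lysosomes. Lamtor2 measured 10.08, 10.19 and 10.11 on the KO arrays and 11.32, 11.29 and 11.35 on the WT arrays, a difference of -1.19 (log2; limma, Benjamini-Hochberg adjusted p = 0.0104). The difference stayed between -1.23 and -1.17 with any 1 array left out, but it no longer passed without KO 2, WT 1, WT 2 or WT 3 (limma, adjusted p = 0.0505 to 0.114).

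Hepatocytes secrete most plasma proteins. These are threaded into the ER and folded there before they leave, and many are also glycosylated or oxidised. The lumenal chaperone BiP, encoded by Hspa5, binds unfolded chains and also holds the sensors IRE1 (Ern1), PERK (Eif2ak3) and ATF6 (Atf6) in check. When unfolded proteins build up, IRE1 splices Xbp1 mRNA into the form that encodes an active transcription factor, PERK phosphorylates eIF2alpha and slows translation, and ATF6 is cut to release its own transcription factor. XBP1 and ATF6 raise chaperones and degradation factors through short promoter elements. The PERK branch raises ATF4 protein largely through translation of its mRNA, and ATF4 raises Ddit3. Arrays of this kind measure the amount of a transcript and do not separate spliced from unspliced Xbp1 mRNA.

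The best known of these promoter elements was found in some of the listed genes. Its sequence was not used to choose the list, but the list and the element are not independent. The list was chosen by function, and such elements are known for raising chaperones and degradation factors. The share of listed genes with the element, set against all genes, is therefore not an independent test. The ER stress response element reads CCAAT, then 9 bases of any kind, then CCACG. It was searched on both strands of RefSeq promoter windows of build GRCm38.p6 that run from 250 bases before to 50 bases after a transcript start. Of the 35 genes, 30 had a window, and 9 of those (30.0%) held the element, against 37 of 27025 genes in the whole promoter table (0.137%). A second form, ATTGG, 1 base and CCACG, was held by 2 of the 30 genes, Dnajb11 and Herpud1, and by 12 of the 27025 genes (0.0444%). Both forms share CCACG, and no listed gene held both. TGACGT followed by GG, a binding sequence of XBP1 and ATF6, was found in 1 of the 30 windows, that of Vcp, against 0.714% of all genes. A match of letters does not show that a factor binds there, and a window without a match says nothing about the factor.

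The Hspa5 window (chr2:34771840-34772139, plus strand), printed whole from 5′ to 3′ with the element in capitals, held 1 exact match.
Hspa5: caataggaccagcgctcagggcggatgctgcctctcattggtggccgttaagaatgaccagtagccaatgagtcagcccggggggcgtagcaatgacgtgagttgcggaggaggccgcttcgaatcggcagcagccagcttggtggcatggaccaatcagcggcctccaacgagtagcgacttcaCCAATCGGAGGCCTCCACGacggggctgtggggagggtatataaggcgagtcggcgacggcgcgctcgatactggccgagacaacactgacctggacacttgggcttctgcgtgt

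The elements of the other genes follow with 15 bases on either side, in the direction of each gene and with the element in capitals. In Calr, Derl3, Creld2 and the second Hsp90b1 site the element lies in the reverse orientation, so that it reads CGTGG, 9 bases, ATTGG. Counted from the transcript start as 0, the first base of the elements lay between -212 (Hsp90b1) and 7 (Dnajb11).
Hsp90b1, first site (chr10:86705623-86705671, minus strand): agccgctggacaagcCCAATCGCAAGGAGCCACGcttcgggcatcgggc
Hsp90b1, second site (chr10:86705518-86705566, minus strand): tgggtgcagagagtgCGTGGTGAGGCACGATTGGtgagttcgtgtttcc
Calr (chr8:84847060-84847108, minus strand): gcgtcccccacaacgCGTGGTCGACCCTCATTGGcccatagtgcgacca
Canx (chr11:50325785-50325833, minus strand): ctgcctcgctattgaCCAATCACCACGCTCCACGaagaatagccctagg
Pdia6 (chr12:17266476-17266524, plus strand): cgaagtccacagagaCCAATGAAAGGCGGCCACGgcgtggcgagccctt
Dnajc3 (chr14:118937812-118937860, plus strand): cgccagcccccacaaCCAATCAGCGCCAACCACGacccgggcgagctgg
Creld2 (chr15:88819505-88819553, plus strand): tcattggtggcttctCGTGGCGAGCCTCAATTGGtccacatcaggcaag
Syvn1 (chr19:6046517-6046565, plus strand): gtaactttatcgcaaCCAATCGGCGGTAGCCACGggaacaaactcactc
Derl3 (chr10:75893227-75893275, plus strand): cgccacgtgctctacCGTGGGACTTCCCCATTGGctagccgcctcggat
Herpud1, second form (chr8:94386362-94386402, plus strand): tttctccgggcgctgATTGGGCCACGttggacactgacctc
Dnajb11, second form (chr16:22857837-22857877, plus strand): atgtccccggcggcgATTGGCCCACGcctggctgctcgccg

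The comparison of KO with WT asked whether the amounts of these transcripts differ in livers without p14. No gene of the list passed the test: in limma, 0 of the 34 genes had an adjusted p under 0.05, where 0.170% of the 10009 genes did (17 genes). Pdia5, a disulfide isomerase, was the single gene with an unadjusted p under 0.05, against 14.5% of all genes (4.32% higher and 10.1% lower in KO). Group means were higher in KO for 17 genes, against 41.6% of all genes, and lower for 17. With each array centred on its median 24 of the 34 were higher, in a fit where the median difference over all genes rose to 0.03. The median difference as deposited was 0.007 (KO minus WT, log2), beside -0.04 over all genes kept. The median size of a difference, whatever its sign, was 0.09 for the list and 0.13 for all genes. In 4 of the 34 genes, Pdia5, Derl1, Sel1l and Atf6, the 3 KO values lay on one side of the 3 WT values, where 20.5% of all genes had such groups. Pdia5 and Derl1 were the higher ones (6.54% of all genes), and Sel1l and Atf6 were the lower ones (1400 of the 10009 genes). An ordinary two-sample test and limma with a mean-variance trend also called 0 of the 34 genes, with 1 at an unadjusted p under 0.05 each.

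A p that misses the threshold does not show equal levels, and the intervals give what these 6 arrays could bound. The 95% confidence interval of the difference had a half-width between 0.15 (Derl2) and 0.80 (Sdf2l1), with a median of 0.30. For 33 of the 34 genes it lay within a 2-fold difference in either direction. The remaining gene was Dnajb9, whose interval reached 1.01. Within a 1.5-fold difference lay the intervals of 25 genes, and the other 9 were Dnajb9, Sdf2l1, Pdia5, Creld2, Manf, Ern1, Eif2ak3, Xbp1 and Ppp1r15a.

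**Figure D1:**
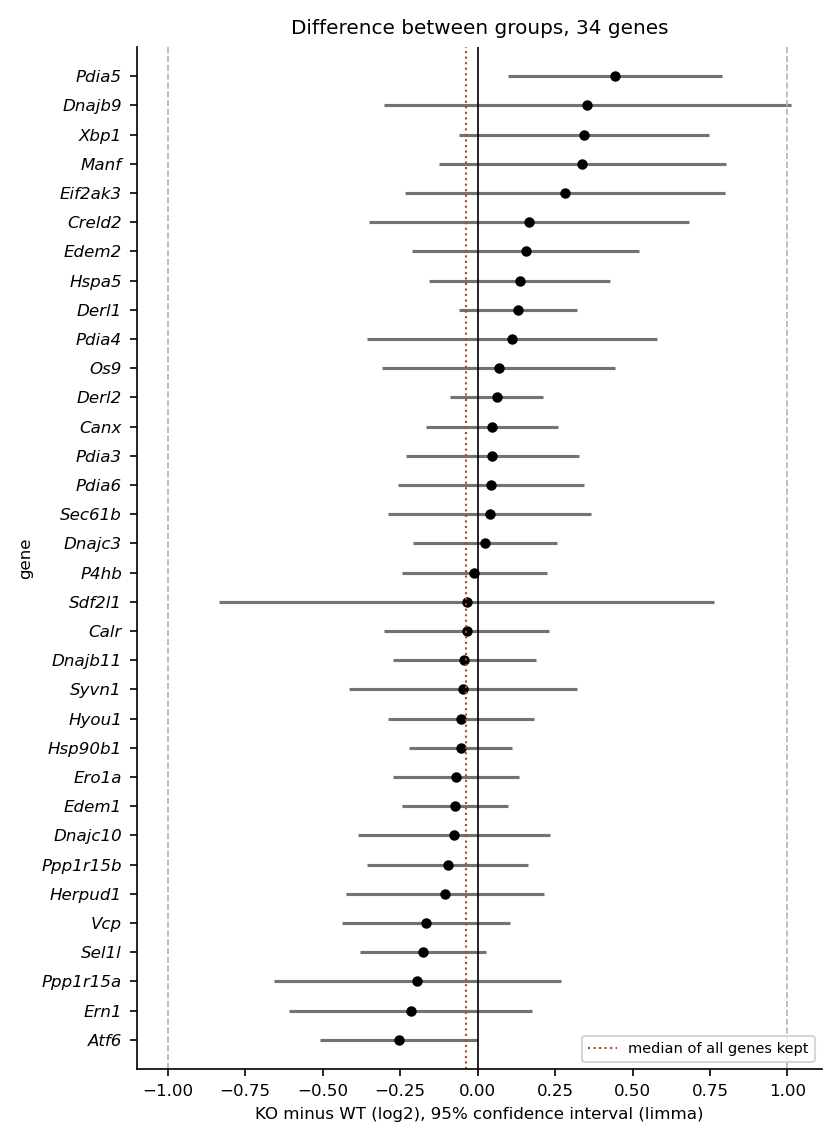
Difference between KO and WT (log2, points) with its 95% confidence interval from limma (lines) for the 34 genes past the filter, 3 arrays per group. The dotted line is the median of all 10009 genes (-0.04) and the dashed lines mark a 2-fold difference. Pdia5 is the single gene whose interval does not include 0.

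Among the lumenal chaperones of the Hsp70 and Hsp90 families, Hspa5 measured 14.34, 14.03 and 14.06 on the KO arrays and 13.85, 14.11 and 14.07 on the WT arrays. KO 1 was the highest and WT 1 the lowest of the 6, and on the other 4 arrays both KO values lay below both WT values, opposite to the difference in means. The means were 14.14 ± 0.17 and 14.01 ± 0.14 (SD, n = 3 each), a difference of 0.14 with an interval from -0.16 to 0.43 (limma, adjusted p = 0.598). Hsp90b1, which encodes GRP94, differed by -0.05, with an interval from -0.22 to 0.11. Hyou1, a large Hsp70 relative that acts as an exchange factor for BiP, also differed by -0.05, and its KO values of 8.35, 8.35 and 8.37 lay within the WT range of 8.30 to 8.60.

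The J proteins drive the ATPase cycle of BiP. Among them and their partners, the J protein Dnajb9 and the partner Sdf2l1 varied widely from mouse to mouse. Dnajb9, whose product ERdj4 also restrains IRE1, measured 12.96, 12.05 and 12.59 in KO and 11.85, 12.27 and 12.41 in WT. KO 1 and KO 3 were above every WT array while KO 2 was below WT 2 and WT 3. The difference was 0.35 (interval -0.30 to 1.01; limma, adjusted p = 0.545). Sdf2l1, which works with Dnajb11 to keep unfolded chains soluble, measured 8.47, 7.39 and 7.87 in KO and 7.64, 7.83 and 8.37 in WT. Here KO 1 was the highest and KO 2 the lowest of all arrays, and the group means of 7.91 and 7.95 were close. Dnajb11, Dnajc3 and Dnajc10 lay between -0.08 and 0.02. Of the 34 genes Dnajb9 and Sdf2l1 had the widest ranges over the 6 arrays, 1.10 and 1.08 on the log2 scale or 2.15-fold and 2.11-fold, wider than those of 89.9% and 89.3% of all genes kept (percentile ranks).

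The lectin chaperones Calr and Canx, which hold newly glycosylated proteins until they fold, differed by -0.04 and 0.05. Calr measured 14.34, 14.09 and 14.14 in KO and 14.12, 14.16 and 14.39 in WT. Its highest values were those of KO 1 and WT 3, in opposite groups.

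Among the enzymes that form and rearrange disulfide bonds, Pdia5 had the largest difference of the 34 genes. It measured 11.68, 11.64 and 11.20 on the KO arrays and 11.01, 11.10 and 11.08 on the WT arrays. KO 3 was slightly above the highest WT array, and KO 1 and KO 2 were well above it. The means were 11.51 ± 0.26 and 11.06 ± 0.05 (SD, n = 3 each), and the difference of 0.44 (interval 0.10 to 0.79) had an unadjusted p of 0.0207 and a Benjamini-Hochberg adjusted p of 0.288 in limma. Without KO 3 the difference was 0.60 and passed (limma, adjusted p = 0.043), in a fit that called 140 genes. Over all settings tried, the adjusted p of Pdia5 ran from 0.043 to 0.637. The mean of the acute-phase genes, a list of inflammation-response genes, had the same order of KO arrays. Over 17 genes it was 13.63, 13.54 and 12.27 on KO 1, KO 2 and KO 3 and 12.18 to 12.41 on the WT arrays. Not every gene of that list had this order, and Fga and Fgb were highest on KO 3. The 18S rRNA control probe sets had the order of the mean too, at 9.25, 9.12 and 8.50 in KO and 7.77 to 8.44 in WT. The part of either in the Pdia5 values was not tested.

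The remaining enzymes of this group had smaller differences. P4hb, the founding protein disulfide isomerase, differed by -0.01, Pdia3, the partner of the lectin chaperones, by 0.05, and Pdia6 by 0.04. Pdia4 measured 9.02 on KO 1 and between 8.35 and 8.63 on the other 5 arrays, so that its difference of 0.11 came with an SD of 0.35 in KO. Ero1a, the oxidase that recharges the isomerases, differed by -0.07.

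Manf and Creld2 are small ER proteins that are partly secreted under stress. Manf measured 12.28, 11.85 and 12.03 in KO and 11.37, 11.81 and 11.96 in WT. WT 1 lay apart at the bottom, and the other WT arrays fell within or just below the KO range. The difference was 0.34 (interval -0.13 to 0.80; limma, adjusted p = 0.437). Creld2 repeated the order at the ends, with KO 1 highest at 9.83 and WT 1 lowest at 9.01, and differed by 0.17 (adjusted p = 0.717 in limma).

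In all, 10 factors of ER-associated degradation and translocation were measured past the filter, 5 with a higher and 5 with a lower KO mean, between -0.18 and 0.16. Sel1l, the scaffold of the HRD1 ubiquitin ligase, measured 11.09, 11.10 and 11.07 in KO and 11.38, 11.12 and 11.29 in WT. The KO arrays were nearly identical, and WT 2 was nearly level with them. The difference was -0.18 (interval -0.38 to 0.03; limma, adjusted p = 0.381). Derl1, a channel-like factor of the same pathway, measured 11.53, 11.36 and 11.40 in KO and 11.34, 11.21 and 11.34 in WT, a difference of 0.13 with groups that barely separated. Syvn1, the HRD1 ligase itself, differed by -0.05, and Herpud1, an organiser of the ligase complex that the stress response induces, by -0.11 with overlapping groups. Vcp, the ATPase that pulls substrates out of the membrane, measured 13.30, 13.15 and 13.06 in KO and 13.43, 13.16 and 13.43 in WT. Its 2 highest values were those of WT 1 and WT 3, and the difference of -0.17 had a limma adjusted p of 0.501. Edem1 and Edem2, which trim mannose from misfolded glycoproteins, differed by -0.07 and 0.16. The lectin Os9, Derl2 and the translocon subunit Sec61b differed by 0.07, 0.06 and 0.04. Derl3, not tested, was at 3.42 on KO 1 and at 2.80 on the other 5 arrays, all below 4.

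The sensors pointed in different directions. Atf6 measured 9.46, 9.46 and 9.14 in KO and 9.62, 9.59 and 9.61 in WT. All KO arrays were below the WT arrays, KO 3 by the widest margin, and the WT values were nearly identical. The difference was -0.25 (interval -0.51 to 0.002), with an unadjusted p of 0.0512 and an adjusted p of 0.345 in limma. Eif2ak3 measured 8.29, 7.53 and 7.86 in KO and 7.41, 7.71 and 7.72 in WT. KO 2 fell among the WT arrays, and the difference was 0.28 (limma, adjusted p = 0.541). Ern1 measured 10.02, 9.66 and 10.11 in KO and 10.01, 10.05 and 10.37 in WT. Its lowest value was KO 2 and its highest WT 3, and it differed by -0.22 (limma, adjusted p = 0.540).

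Xbp1, the target of IRE1 and a regulator of secretory capacity, measured 13.95, 13.66 and 13.66 in KO and 13.17, 13.36 and 13.71 in WT. WT 3 reached the level of KO 2 and KO 3, while WT 1 and WT 2 lay below every KO array. The means were 13.75 ± 0.17 and 13.41 ± 0.28 (SD, n = 3 each), and the difference of 0.34 (interval -0.06 to 0.75) did not pass (limma, adjusted p = 0.388). Without WT 3 it was 0.49 (limma, adjusted p = 0.396). Ppp1r15a, the stress-induced subunit that directs a phosphatase to eIF2alpha, measured 6.69, 6.64 and 7.11 in KO and 6.86, 6.84 and 7.31 in WT. In both groups mouse 3 was the highest, and the difference was -0.19 (limma, adjusted p = 0.631). Ppp1r15b, the constitutive counterpart, differed by -0.10.

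**Figure D2:**
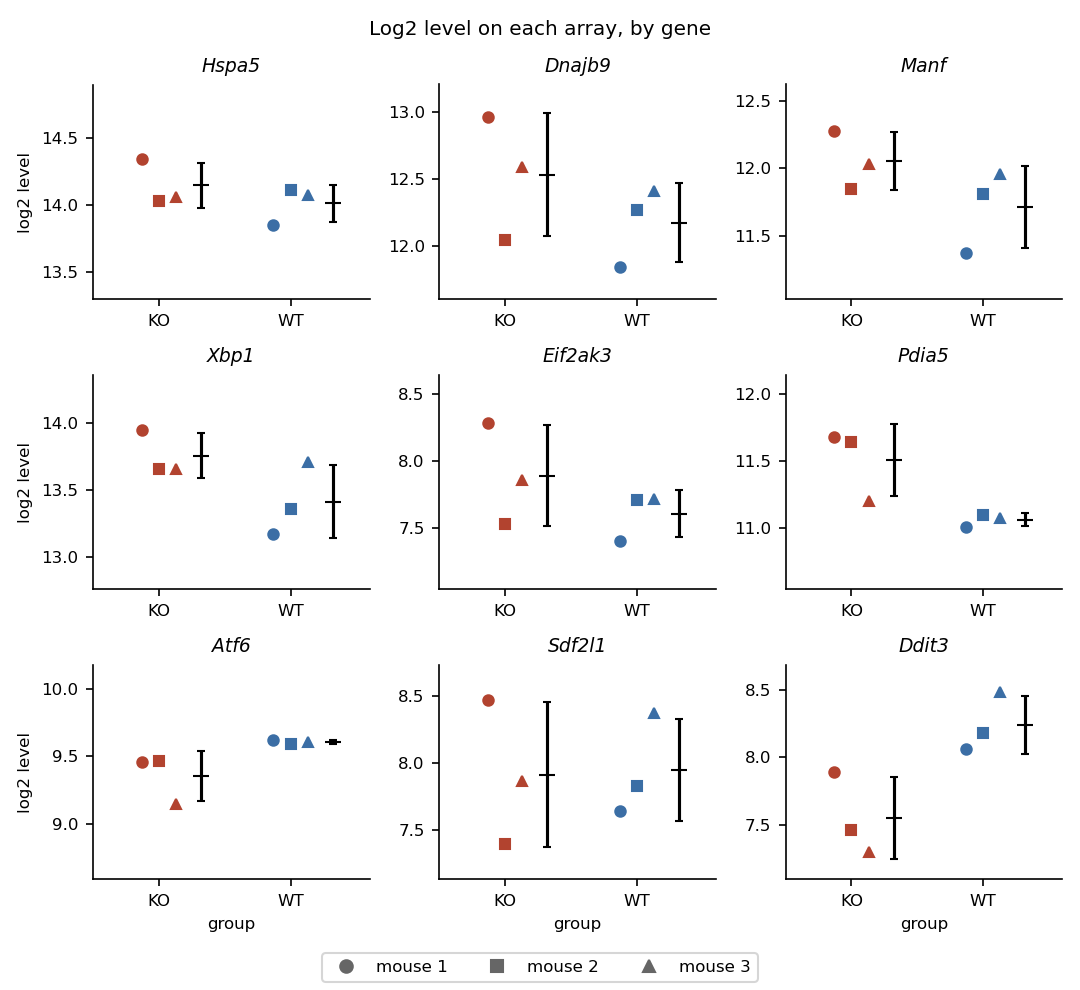
Log2 level on each of the 6 arrays for 8 of the listed genes and for Ddit3, a target of the PERK branch; bars give the mean and SD of 3 mice, and every panel spans 1.6 log2 units. Groups overlap in Hspa5, Dnajb9, Manf, Xbp1, Eif2ak3 and Sdf2l1, and do not overlap in Pdia5, Atf6 and Ddit3.

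The median SD within a group was 0.16 for the listed genes, above the median size of their group difference (0.09). The same held for all genes kept, at 0.15 against 0.13. Many of the listed genes ranked the mice alike. Within the KO group, KO 1 held the highest value in 27 of the 34 genes (79.4%), where it did so in 31.5% of all genes kept. KO 2 was the lowest of the 3 in 19 genes (55.9%, all genes 31.2%). Within the WT group, WT 3 was the highest in 21 genes (61.8%, all genes 41.0%) and WT 1 the lowest in 20 (58.8%, all genes 33.9%). Over all 6 arrays, KO 1 was the highest in 18 genes and the lowest in none, and WT 1 was the lowest in 14. These counts describe 6 mice, and genes that vary together do not count as separate observations.

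The median deviation of the 34 genes from their own means was 0.16 on KO 1 and 0.10 on WT 3, and between -0.07 and -0.04 on the other 4 arrays. Over all genes kept it lay between -0.02 and 0.04 on every array. Without KO 1 the list had 9 genes higher and 25 lower in KO, with a median of -0.06. Without WT 3 it had 23 higher and 11 lower, with a median of 0.07. The sign of the difference was kept in 19 of the 34 genes whichever single array was left out. It changed at least once in 15 genes, among them Sdf2l1, Calr, Canx, Pdia3, Pdia4, Pdia6, P4hb and Creld2.

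**Figure D3:**
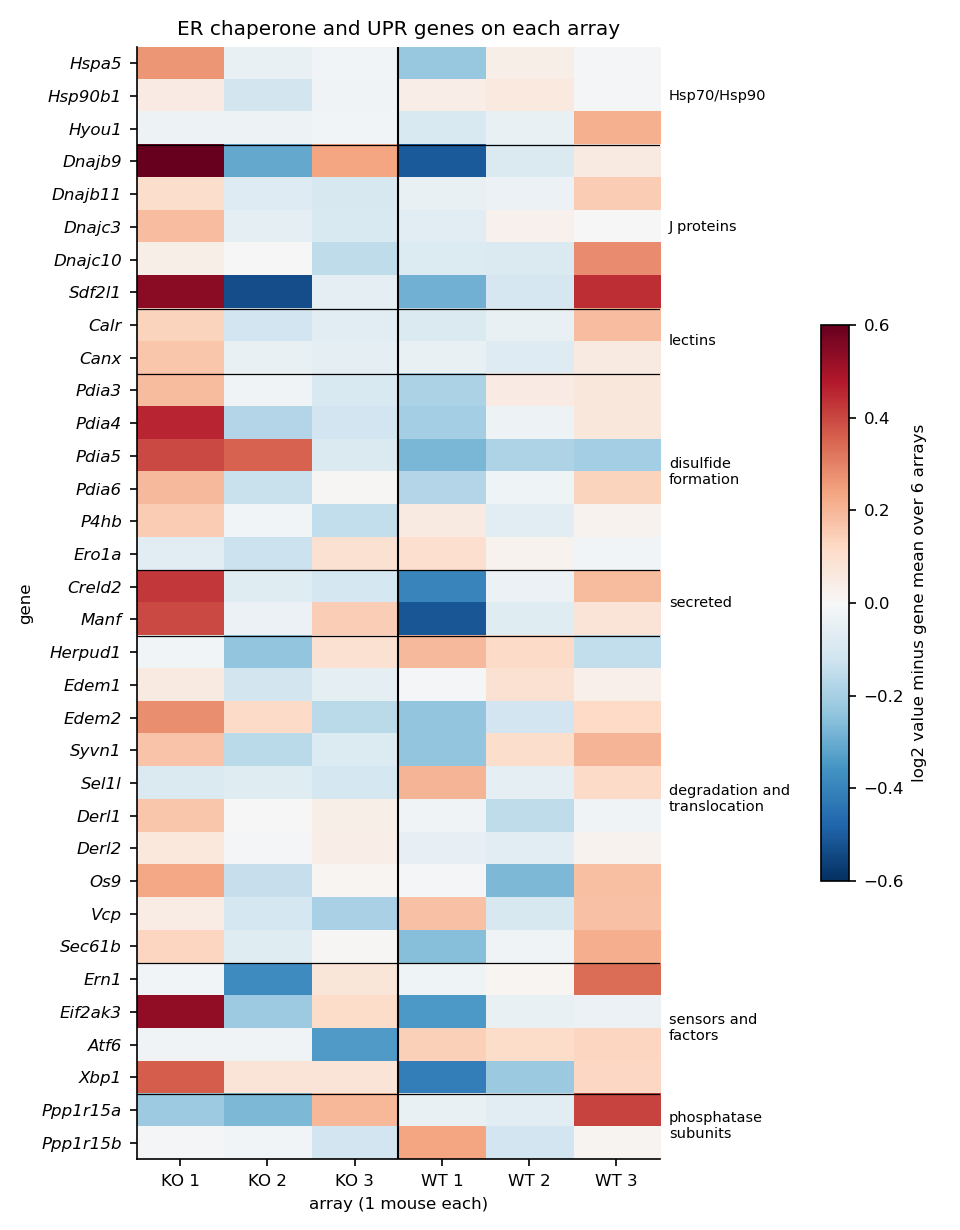
Log2 value of each of the 34 genes on each array minus the gene's mean over the 6 arrays, grouped by role; red is above and blue below the gene's mean, with colours capped at 0.6. The column of KO 1 is mostly red and that of WT 1 holds the strongest blues for Dnajb9, Manf and Xbp1, while KO 2 is blue for Sdf2l1 and Ern1.

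KO 1 and WT 3 differed from the other arrays in further measures, given here as values whose part in the pattern was not tested. The 18S rRNA controls were highest on KO 1 (9.25) and lowest on WT 3 (7.77), so they moved in opposite directions on the 2 arrays with the highest chaperone values. KO 1 also had the highest mean of 2 neutrophil transcripts, S100a8 and S100a9, at 6.31 against 4.75 to 5.38 elsewhere, while Elane, Mpo, Camp, Ngp and Cxcr2 were below 4 on every array. Its mean of 13 Kupffer cell and macrophage markers was the lowest, at 8.08 against 8.49 and 9.39 on the other KO arrays and 9.62 to 9.71 in WT. All 13 of these markers had a lower KO mean, with a median of -0.87 and 0 called in limma (8 at an unadjusted p under 0.05). Of 13 markers of liver endothelium, 11 were lower in KO mean (median -0.33, 1 called). In bulk tissue, fewer cells of a type and less RNA per cell cannot be told apart. Hepatocyte markers, all 10 past the filter, had means between 15.28 and 15.39 on the 6 arrays.

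Plasma cells and pancreatic acinar cells are rich in ER, and their markers were examined for that reason. None of the 7 plasma cell markers passed the filter, and the highest single value was 4.11, for Jchain on WT 3. Of 11 acinar markers 3 passed, and their part in the results was not tested. Of those that did not pass, Cpa1, Cpb1, Cel, Ctrb1, Clps, Prss2 and Pnliprp1 were below 3 on all arrays, and Cela3b was at 3.845 to 4.035. The 3 that passed were Cela1, Cela2a (5.68 to 6.12 over the 6 arrays) and Zg16 (4.41 to 4.89), all with a higher KO mean (median 0.23) and none called. Cela1 was at 10.12, 10.04 and 9.64 in KO and 9.10, 9.36 and 9.71 in WT. Skeletal muscle transcripts were present on WT 2, with Acta1 at 13.72 there and at most 3.25 elsewhere. Without both WT 2 and KO 3 the fit called 0 of the 34 genes, and Pdia5 differed by 0.62 (limma, adjusted p = 0.149).

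**Figure D4:**
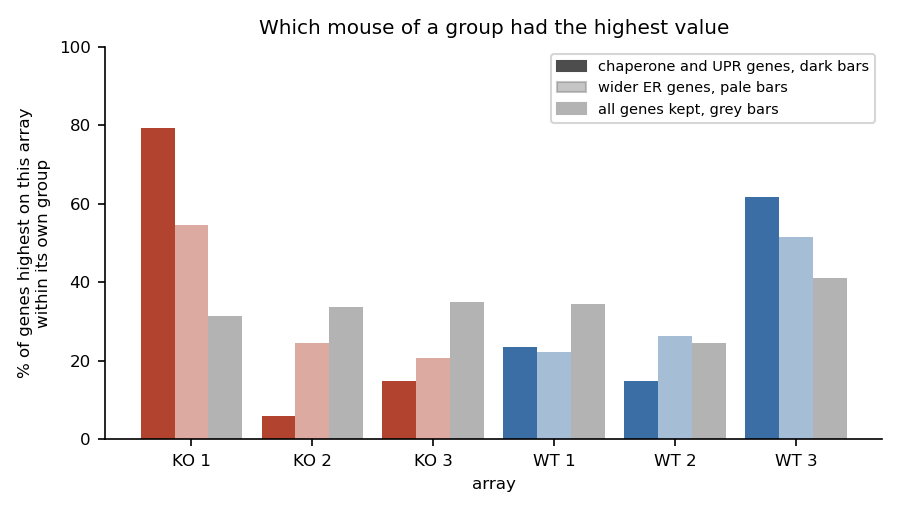
Share of genes (percent) whose highest value within their own group fell on each array, for the 34 chaperone and stress-response genes (dark), the 130 wider ER genes (pale) and all 10009 genes kept (grey). KO 1 takes 79.4% of the first and 54.6% of the second set, and 31.5% of all genes.

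Where a gene had further probe sets, they tested the reading of its brightest one. The 35 genes had 81 probe sets, of which 74 passed the filter, and 22 genes had at least 1 further probe set past it. Those numbered 40, and 22 differed in the direction of the brightest probe set and 18 in the opposite one. With every probe set tested on its own, 0 of the 74 were called in limma and 9 had an unadjusted p under 0.05. Of all 17316 probe sets tested, 15 were called (0.0866%) and 14.4% had an unadjusted p under 0.05. The groups did not overlap in 13 of the 74, and this share was not counted over all probe sets. Over all genes kept, read from the brightest probe set, it was 20.5%. Probe sets of the same gene read the same livers, so they do not count as separate observations.

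Sel1l disagreed with itself most clearly. Its brightest probe set was lower in KO, and 3 of its 4 others were higher with no overlap between groups, by 0.20, 0.48 and 0.66. The probe set with a difference of 0.48 measured 9.81, 9.82 and 9.85 in KO and 9.29, 9.48 and 9.28 in WT, and had the smallest p of all probe sets of the list (0.001 unadjusted, limma adjusted p = 0.156 over all probe sets). Which Sel1l transcripts each probe set detects was not analysed here. Atf6 was divided as well, with -0.25 for the brightest probe set, 0.03 for the next and 0.27 for the dimmest, whose KO values of 7.56, 7.13 and 7.08 were all above the WT values of 7.07, 6.96 and 6.92.

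In several genes, among them Xbp1, Hspa5, Herpud1, Calr, Canx and Syvn1, the probe sets shared a direction. All 4 of Xbp1 were higher in KO mean, by 0.34 to 0.43, and in 2 of the 4 the groups did not overlap. These 4 read the same livers and do not replicate each other. All 3 of Hspa5 were higher in mean, by 0.11 to 0.26, and both of Herpud1 were lower, by 0.11 and 0.15. A further probe set of Os9 differed by 0.42, measuring 9.51, 9.28 and 9.17 in KO and 8.99, 8.90 and 8.81 in WT (unadjusted p of 0.00929, limma adjusted p = 0.248), against 0.07 for the brighter one. For Ero1a the brightest probe set differed by -0.07 and both others by 0.27 and 0.26. A further probe set of Canx differed by 0.29 with groups that did not overlap (limma, adjusted p = 0.303), against 0.05 for the brightest. Hsp90b1 differed by -0.05 on its brightest probe set and by 0.25 on the other. Pdia5, Manf, Dnajb9, Sdf2l1 and Creld2 had a single probe set each.

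**Figure D5:**
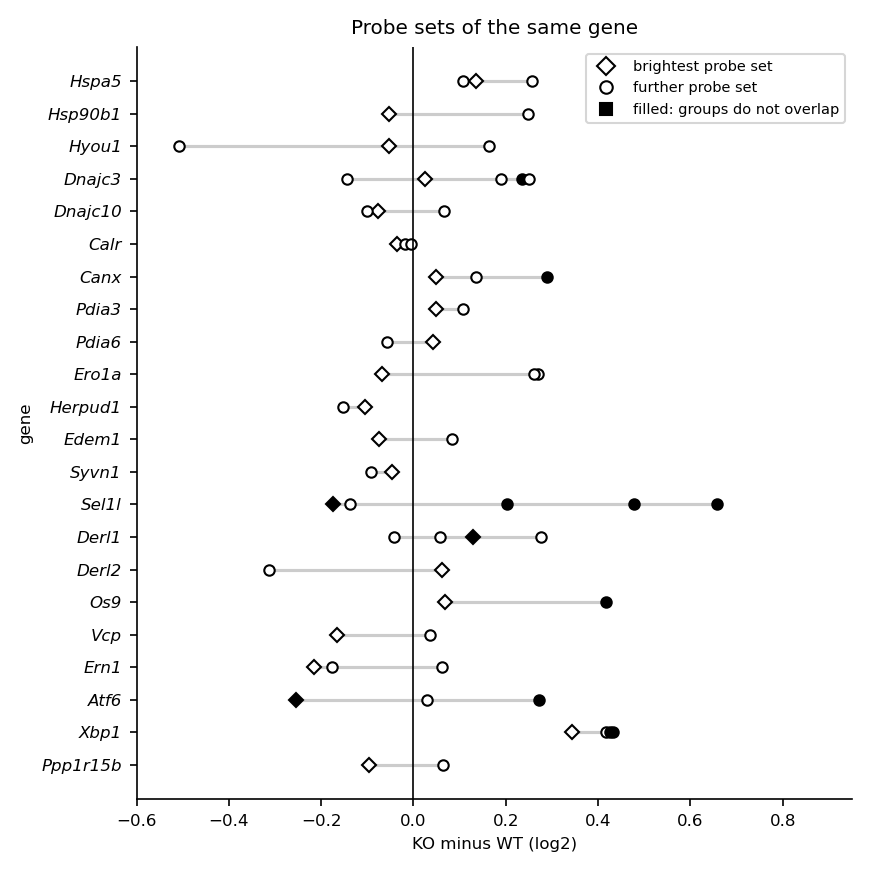
Difference between KO and WT (log2) for every probe set past the filter in the 22 genes with more than 1; diamonds are the brightest probe set, circles the others, and filled symbols mark groups that do not overlap. Sel1l spans -0.18 to 0.66 and Atf6 -0.25 to 0.27, whereas all probe sets of Xbp1 and Hspa5 lie above 0.

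The genes were also split by the promoter elements shown above. The 11 genes with either form of the ER stress response element, of which 10 passed the filter, had a median difference of -0.005 and a range from -0.11 to 0.17, with 5 higher and 5 lower. The 19 genes with a window and neither form had a median of 0.04 and a range from -0.22 to 0.44. The difference between these sets was not tested. Outside the list, 38 genes held either form. Of these 12 were past the filter, with a median of 0.01, a range from -1.399 to 0.295 and 0 called in limma. An unadjusted p under 0.05 was found in 3 of the 12, where 14.5% of all genes had one.

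The wider ER pathway was followed in 143 further genes in 5 lists by function, of which 130 passed the filter. None of the 130 was called in limma, and 11 had an unadjusted p under 0.05 (4 higher, 7 lower), where 14.5% of all genes did. Their median difference was 0.02, beside -0.04 over all genes. Genes of translocation into the ER had the most uniform direction, with 15 of 21 higher and a median of 0.07. Ssr4, a subunit of the translocon-associated complex, differed by 0.32 (limma, adjusted p = 0.349) and Srp72, of the signal recognition particle, by 0.15 with groups that did not overlap. Glycosylation genes had 8 of 15 higher and a median of 0.00, with the oligosaccharyltransferase subunits Stt3b at -0.12 and Ostc at 0.19.

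Other folding factors had 22 of 38 lower and a median of -0.06, where 5845 of all 10009 genes were lower. Mcfd2, a cargo receptor subunit that exports coagulation factors from the ER, measured 12.89, 12.90 and 12.80 in KO and 13.19, 13.16 and 13.15 in WT. The groups were well apart, and the difference of -0.30 had an adjusted p of 0.192 in limma. Fkbp9, a prolyl isomerase, differed by -0.40 (limma, adjusted p = 0.199). Serpinh1, the collagen chaperone, was chosen after its values were seen. It differed by -0.67 (limma, adjusted p = 0.27), while 10 of 11 stellate cell markers were lower in KO mean (median -0.35). WT 2, the array with skeletal muscle transcripts, had the highest Serpinh1 value, 8.86. It also had the highest mean of the stellate markers, 10.04 against 9.52 on WT 1 and 9.68 on WT 3. The part of stellate cells or of WT 2 in the Serpinh1 difference was not tested. Among other degradation factors 16 of 29 were higher, with a median of 0.04, and Rad23b, which carries ubiquitinated proteins to the proteasome, differed by 0.33 and Fam8a1, a cofactor of the HRD1 ligase, by 0.20.

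The list of other stress signalling genes had 16 of 27 higher, a median of 0.03 and a range from -0.69 to 0.92. Its genes of smallest p were both lower in KO mean. Ddit3, which encodes the transcription factor CHOP, measured 7.89, 7.46 and 7.30 in KO and 8.06, 8.18 and 8.48 in WT. Every KO array was below every WT array, and the difference of -0.69 (interval -1.16 to -0.23) had an unadjusted p of 0.0113 and an adjusted p of 0.250 in limma. Traf2, an adaptor that binds IRE1, differed by -0.42 (limma, adjusted p = 0.282). The next genes were chosen after their values were seen. Bbc3, which encodes the pro-apoptotic protein PUMA, had the largest difference of the list, 0.92, with overlapping groups (limma, adjusted p = 0.367). Atf4 differed by -0.23 with overlapping groups. Chac1, a glutathione-degrading target of ATF4 and CHOP, was at 6.72, 6.86 and 7.06 in KO against 6.62 on every WT array. It differed by 0.26, opposite in sign to Ddit3 (limma, adjusted p = 0.328). The WT values were nearly identical (SD 0.003), and whether they are a background value of this probe set was not tested. Trib3, another target, was at 7.69 on KO 2 and between 6.10 and 6.79 elsewhere, and Asns, the asparagine synthetase, was below 4 on all arrays.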

How the data were processed

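Liver RNA from 6 mice was hybridised to 1 Affymetrix array each. The authors deposited 1 log2 value per probe set and array. The submitters' processing notes name GCRMA 2.16.0 and R 2.9.1, and the log2 scale was inferred from the values (2.185 to 16.327). GCRMA models background from the base composition of each probe and normalises the arrays together. Of all values 28.9% sat at the lowest value, so dim probe sets carry little information.

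Of 45101 probe sets 34945 were paired with 1 gene symbol by the platform annotation, and older names were matched through RefSeq (GRCm38.p6). The test of KO against WT used limma 3.58.1 in R 4.3.3 (lmFit, eBayes, two-sided, no covariates), with Benjamini-Hochberg adjustment over all 10009 genes at a threshold of 0.05. The number of arrays limits the precision, and an exact permutation test of 3 against 3 cannot go below p = 0.1. On simulated data for KO against WT over 10009 genes, limma found 40% of the 50 genes given a 1.5-fold change, 76% of those given 2-fold and 98% of those given 4-fold, and made 4 false calls. The same run held 50 genes given 8-fold, and the share of strongly changed genes moves the Benjamini-Hochberg cutoff. Its noise was independent from gene to gene, whereas many listed genes varied together on the real arrays. These rates need not hold for the real data. Promoter windows came from RefSeq (GRCm38.p6); the sequences of the proteins were not analysed here. The listed genes, the gene lists and the tests were chosen with earlier results of these data known. Named were all 35 genes of the list, with values on each array for Hspa5, the genes with the smallest p, the sensors, Xbp1, Ppp1r15a and genes where 1 array stood apart, and the 2 genes of smallest p in each wider list. Figures were drawn with matplotlib 3.10.9.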

Additional observations from a re-analysis of the deposited data

How the results depend on the processing

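No listed gene was called under any setting run except without KO 3, where Pdia5 was (0.60). Leaving out each array in turn gave 0 to 1 called listed genes, 1 to 140 called genes of the table, 4 to 9 listed genes with groups that did not overlap (11.8% to 26.5%, where 27.5% to 37.4% of all genes had such groups), and a median difference of the list between -0.06 and 0.07. The count of wider ER genes called was 0 under every setting run. Genes called over the table numbered 10 with a minimum of 6, 3 with no filter, 3 with an ordinary two-sample test, 0 with the replicate block and 3 without KO 3 and WT 2, a pair chosen after the data were seen, where 8 listed genes (23.5%) and 49.4% of all genes had separate groups. Lamtor2 differed by -1.19 under the replicate block (limma, adjusted p = 0.116), by -1.20 without KO 3 and WT 2 (limma, adjusted p = 0.114), by -0.72 with its probe sets averaged (still called), and by -1.23 to -1.17 with 1 array left out, where its call was lost without KO 2, WT 1, WT 2 or WT 3. Whether the replicate numbers pair the mice could not be decided from these values. Deviations of same-numbered arrays correlated at -0.09, -0.08 and -0.14, and those of differently numbered arrays at -0.07 to 0.16. With 3 arrays per group such correlations cannot exclude a pairing. The replicate block called 0 of the listed genes. Some uncalled differences changed sign, and the cause was not tested. They were Sdf2l1 0.023, P4hb 0.008 with array weights, Hyou1 0.015, Sdf2l1 0.058 with quantile normalization, Hsp90b1 0.012, Hyou1 0.014, Dnajb11 0.024, Sdf2l1 0.031, Calr 0.032, P4hb 0.056, Syvn1 0.021 with each array centred on its median, and Hsp90b1 0.097, Pdia6 -0.007, Ero1a 0.154, Edem1 0.005, Sel1l 0.205, Derl2 -0.126, Atf6 0.016 with a gene's probe sets averaged. Without KO 3 and WT 2 they were P4hb 0.029, Syvn1 0.023, Os9 -0.038. With 1 array, or that pair, left out, the ranges that crossed 0 were Hyou1 from -0.111 to 0.041, Dnajb11 from -0.107 to 0.022, Dnajc3 from -0.063 to 0.098, Dnajc10 from -0.139 to 0.046, Sdf2l1 from -0.315 to 0.223, Calr from -0.11 to 0.047, Canx from -0.023 to 0.087, Pdia3 from -0.035 to 0.143, Pdia4 from -0.089 to 0.228, Pdia6 from -0.045 to 0.121, P4hb from -0.088 to 0.064, Creld2 from -0.005 to 0.3, Syvn1 from -0.174 to 0.044, Os9 from -0.052 to 0.174, Sec61b from -0.076 to 0.155. The number of arrays and the dim probe sets limit what can be seen.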
